A study of Homo sapiens with 14 samples.

Results

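The genes described here encode the proteins of the cytoplasmic ribosome. They were taken from the array annotation by symbol: RPLP0, RPLP1 or RPLP2, or RPL or RPS followed by a number and then only A, X, L or digits, which leaves out pseudogenes and the S6 kinases. Of 19775 genes on the array with a probe set of their own, 60 matched, carried by 121 probe sets. Each gene was first represented by its brightest probe set, taken as the mean of the 14 arrays, and every probe set was then examined. Of the 60 genes, 56 lay above the filter on low signal (a mean of 6.19 on the log2 scale) and were tested among 13137 genes, and 107 of the 121 probe sets lay above it. The 4 genes below it were RPL36A and the paralogues RPL3L, RPL10L and RPL39L. A further 15 genes of the family occurred only on probe sets annotated with several symbols, and these are not named.

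The cells were HepG2, a human line grown from a tumour of the liver, transfected with miR-124 or a negative control. miR-124 is a small RNA abundant in neurons that lowers messenger RNAs with a matching site. Each transfection was sampled at 4, 8, 16, 24, 32, 72 and 120 h on a single array per time, 14 arrays altogether. The labels do not say that arrays came from separate cultures, so each p-value measures only the spread of the effect between times, which mixes change with time and technical spread.

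A ribosome consists of a large and a small subunit, each built from ribosomal RNA and a fixed set of proteins, and the P stalk of the large subunit recruits the factors that drive elongation. Most ribosomal protein messages are abundant and start with a run of pyrimidines, the terminal oligopyrimidine or TOP tract, through which growth signals control their translation together. A few members have paralogues on other chromosomes that are made in particular tissues or conditions. The liver is a major site of protein synthesis, and HepG2 keeps the secreted products of hepatocytes. All 9 hepatocyte markers checked lay above the filter, with mean log2 levels of 10.9 to 13.9. Of 11 markers of blood, endothelial, fibroblast and nerve cells, 6 lay above it and the range was 4.48 to 8.44.

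The sequences around the annotated transcription starts show whether some of the members have a TOP tract there. Each line below is 30 bases before and 20 bases from a RefSeq start in GRCh38.p14, read 5′ to 3′ on the gene's strand. Capitals mark the unbroken run of C and T from the start where the start base is a C followed by at least 4 more C or T bases. They are shown for RPS27L and RPL22L1 beside the standard members that they resemble, for RPL19 and RPS9, which had large late decreases, and for RPS25, which had the highest late value. RPL19 has a pair of annotated starts, and both are shown. RPL30, which had the lowest late value, has no promoter entry and is not shown.
RPS27L, chr15:63157458-63157507, minus strand: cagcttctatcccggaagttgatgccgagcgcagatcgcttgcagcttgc
RPS27, chr1:153990732-153990781, plus strand: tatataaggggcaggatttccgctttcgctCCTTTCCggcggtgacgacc
RPL22L1, chr3:170870176-170870225, minus strand: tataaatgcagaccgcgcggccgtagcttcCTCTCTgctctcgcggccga
RPL22, chr1:6199576-6199625, minus strand: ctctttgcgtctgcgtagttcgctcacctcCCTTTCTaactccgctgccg
RPL19 first start, chr17:39200253-39200302, plus strand: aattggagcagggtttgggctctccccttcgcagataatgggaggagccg
RPL19 second start, chr17:39200293-39200342, plus strand: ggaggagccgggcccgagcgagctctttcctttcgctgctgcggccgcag
RPS9, chr19:54200828-54200877, plus strand: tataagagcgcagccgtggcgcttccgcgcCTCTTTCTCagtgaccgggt
RPS25, chr11:119018324-119018373, minus strand: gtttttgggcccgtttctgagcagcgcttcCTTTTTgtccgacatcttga

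A tract of this kind, read on the gene's strand only, stood at a start of 35 of the 52 member genes that have a promoter entry (67.3%). It stood at a start of 1404 of 27305 genes in the whole promoter table (5.14%). By role, 18 of 25 large subunit genes, 14 of 19 small subunit genes, both P stalk genes and 1 of 6 paralogues had it. RPS27 and RPS27L differ in it, since RPS27L has no C at its start. The absence of a match says only that these letters are not at the annotated base.

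With miR-124, most ribosomal protein messages stayed close to control through 32 h, 14 fell in the late samples, 5 of these by 0.58 or more on the log2 scale, and at 120 h nearly the whole family lay slightly below control. In order of time, the 56 genes had median log2 ratios (miR-124 over control) of 0.00, 0.00, −0.03, 0.02, −0.04, −0.08 and −0.19. The number of members with a ratio below 0 was 25, 27, 39, 22, 40, 41 and 55. Over all tested genes the share below 0 was 56.6%, 43%, 50%, 38.6%, 41.5%, 47.7% and 51.5%, and their median at 120 h was −0.01. The exception among the members at 120 h was the paralogue RPL26L1 at 0.27. A single pair of arrays stands behind each time, so these counts carry no test. Arrays of whole cultures scaled to a common distribution cannot tell less of these messages per cell from more of the others, or from a change in which cells are present.

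**Figure D1:**
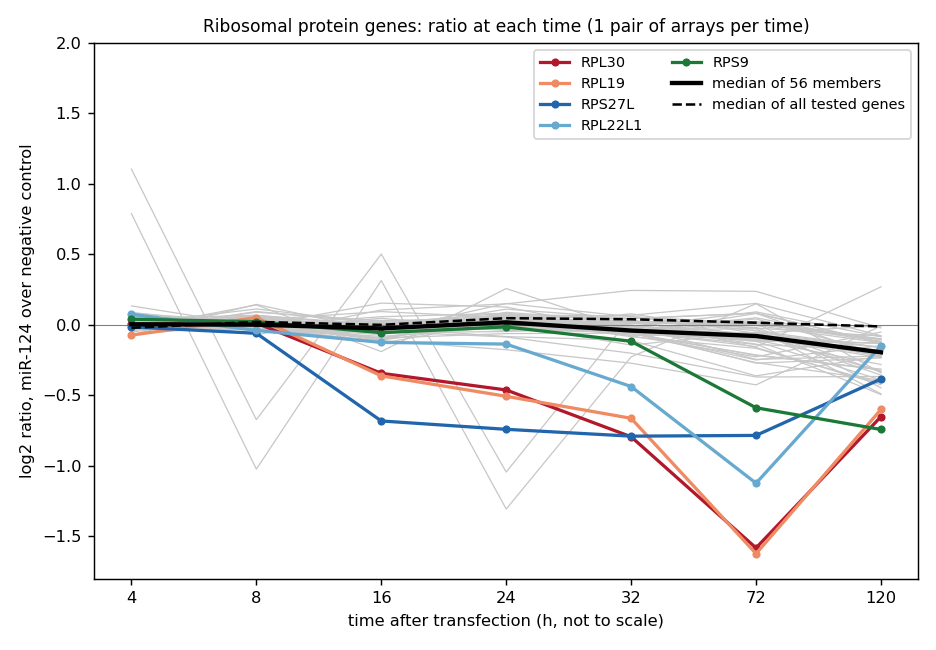
Log2 ratio of miR-124 over negative control (vertical axis) for 56 ribosomal protein genes at 7 times (horizontal axis, hours, not to scale), 1 pair of arrays per time. Grey lines are single genes, coloured lines the 5 genes with the lowest late change, the solid black line the members' median and the dashed line the median of all 13137 tested genes. RPL30 and RPL19 dip to −1.58 and −1.62 at 72 h, and the members' median is −0.19 at 120 h.

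The shift at 120 h was narrow. The SD of the ratio over the members was 0.17, against 0.43 over all tested genes at that time. Most members are bright, and among genes with a mean level of at least 13 the SD was 0.08 over 35 members and 0.19 over 42 other genes. The shift did not rest on the 5 genes with the lowest late change, since 50 of the other 51 members lay below 0 with a median of −0.19. All 29 large subunit genes (median −0.23) and all 20 small subunit genes (median −0.17) were below 0. Among the brightest genes, those with a mean level of at least 13, all 35 members lay below 0 at 120 h (median −0.16), as did 20 of 42 other genes (median 0.01). Of the 59 probe sets above the filter that carry a ribosomal protein symbol among several symbols, 53 lay below 0 (median −0.22).

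Both transfections contributed to the ratio at 120 h. Against the mean of the 4 h pair, the miR-124 arrays at 72 and 120 h had member medians of −0.12 and −0.11, with 47 and 53 of 56 genes below their 4 h mean. The control arrays at these times had medians of −0.03 and 0.09, with 40 and 7 of 56 below. The medians of all tested genes at 120 h were −0.02 with miR-124 and 0.01 in the control. Measures of RNA quality differed within the same pair of arrays. The log2 difference between 3′ and 5′ probe sets was 0.411 for ACTB with miR-124 at 120 h and 0.102 in the control, and for GAPDH it was 0.199 with miR-124 and 0.0311 in the control, the lowest of the 14 arrays for both genes. At 72 h the difference was 0.357 for ACTB with miR-124 and 0.237 in the control, and 0.301 for GAPDH with miR-124 and 0.145 in the control. At 24 h the difference was 0.561 for ACTB with miR-124 and 0.271 in the control. For GAPDH at 24 h it was 0.286 with miR-124 and 0.201 in the control. The part of RNA quality in the shift of the members was not tested.

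Which members changed was tested with limma in 3 windows of time (the early one is 4 and 8 h, the middle one 16 to 32 h, the late one 72 and 120 h), in 1 fit that keeps the arrays of a time as a pair. Each SE rests on the spread within all 3 windows of this shared fit, over 7 pairs. An SE given with 2 or 3 pairs is therefore not the spread of those pairs alone. No member passed an adjusted p of 0.05 in the early window (0 members at an unadjusted p under 0.05; percent called among all genes 0), and 1 fell in the middle window against 4.36% of all tested genes. In the late window 14 of 56 members fell and 0 rose. Among all tested genes 12.6% fell and 16.4% rose late. The 14 changes ran from −1.12 to −0.25 on the log2 scale, and the other 42 members lay between −0.26 and 0.11. The members' median late change was −0.15, against −0.01 for all tested genes. Over all 7 pairs together, 0 members passed (5 at an unadjusted p under 0.05), against 0.784% of genes lower and 0.129% higher.

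**Figure D2:**
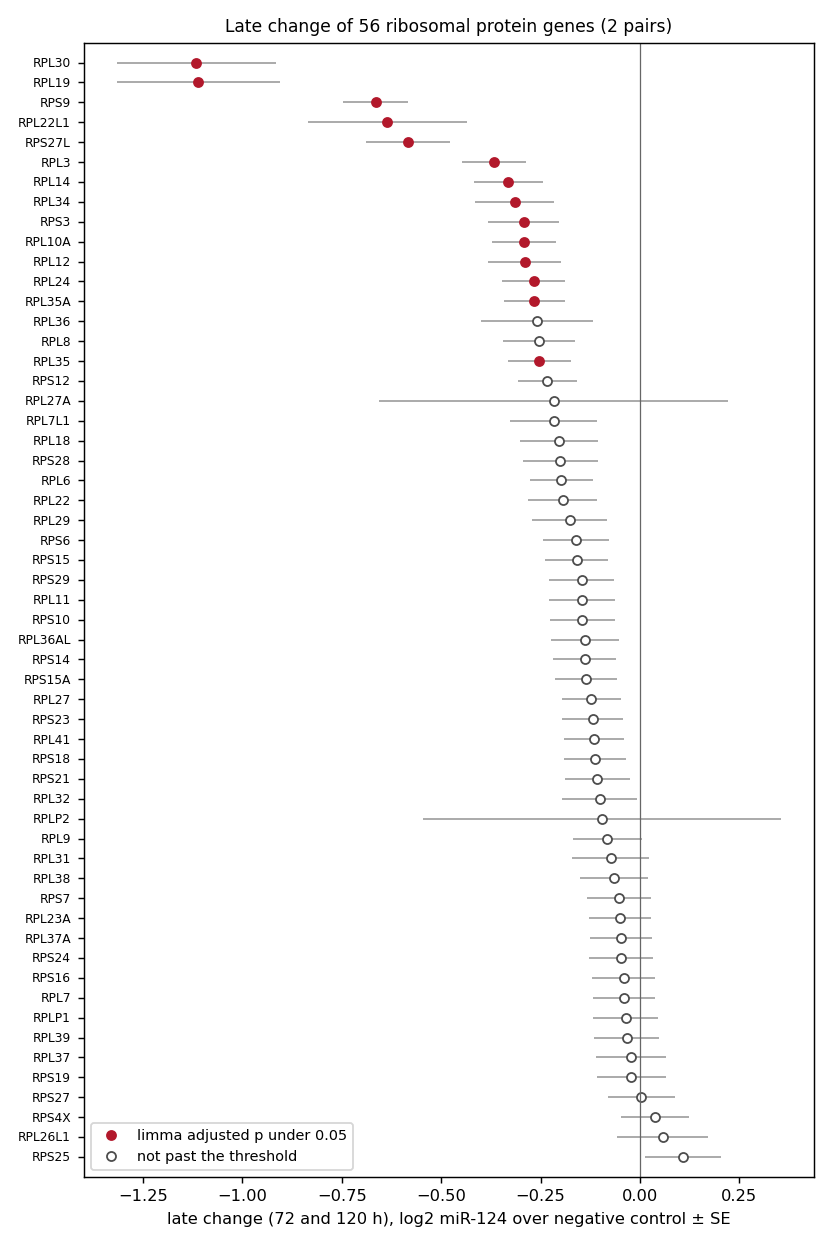
Late change (log2 miR-124 over negative control, mean of 72 and 120 h, ± SE from limma) of the 56 tested ribosomal protein genes, lowest at the top. Filled points passed an adjusted p of 0.05. The 14 filled points all lie below 0, from −1.12 for RPL30 to −0.25 for RPL35.

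The late count differed between settings. With one pair left out in turn, in order of time from 4 to 120 h, it was 6, 6, 7, 5, 6, 12 and 8. With the late window fitted on its own 4 arrays 0 members and 469 genes in all passed, and 4 members passed in the shared fit with a change of at least 1.5-fold.

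By role, 10 of 29 large subunit genes, 2 of 20 small subunit genes, 0 of 2 P stalk genes and 2 of 5 paralogues fell late. Among all tested genes 12.6% fell late, and the small subunit count (10%) is near that share. The median late change was −0.20 over the large subunit genes and −0.13 over the small subunit genes. The 14 comprised RPL30, RPL19, RPL3, RPL14, RPL34, RPL10A, RPL12, RPL24, RPL35A and RPL35 of the large subunit, RPS9 and RPS3 of the small subunit, and the paralogues RPL22L1 and RPS27L. The difference between the subunits was not tested.

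RPL30, a small protein at the interface of the subunits, and RPL19, which reaches across that interface, had the lowest late values. RPL30 had log2 levels of 13.24, 13.14, 12.88, 12.64, 12.32, 11.61 and 12.64 with miR-124, against 13.23, 13.13, 13.22, 13.10, 13.12, 13.19 and 13.29 in the control, in order of time. The control stayed within 13.10 to 13.29, and every miR-124 array from 16 h on lay below that range. From 16 to 120 h the ratios were −0.34, −0.46, −0.79, −1.58 and −0.65. In linear terms RPL30 was 2.99-fold lower at 72 h and 1.57-fold lower at 120 h. Its late change was −1.12 ± 0.20 (SE from the shared fit, 2 late pairs, limma adjusted p = 0.0050). Its middle value of −0.53 ± 0.16 missed the threshold (limma adjusted p = 0.0989).

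RPL19 had log2 levels of 13.18, 13.19, 12.85, 12.60, 12.47, 11.59 and 12.67 with miR-124, against 13.25, 13.13, 13.21, 13.11, 13.13, 13.21 and 13.27 in the control. As for RPL30, the miR-124 arrays from 16 h on lay below every control array, and the array at 72 h was the lowest. The late change was −1.11 ± 0.20 (SE, 2 pairs, limma adjusted p = 0.00568), or 2.16-fold, and the middle value was −0.51 ± 0.17 (limma adjusted p = 0.121). At 72 h RPL19 and RPL30 were among the 3 members at least 2-fold lower, the third being RPL22L1, against 5.92% of all tested genes. Fitted on the middle arrays alone, RPL30, RPL19 and RPS27L passed in that window. Each of the pair is represented by 1 probe set, so neither change can be checked on a second one.

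**Figure D3:**
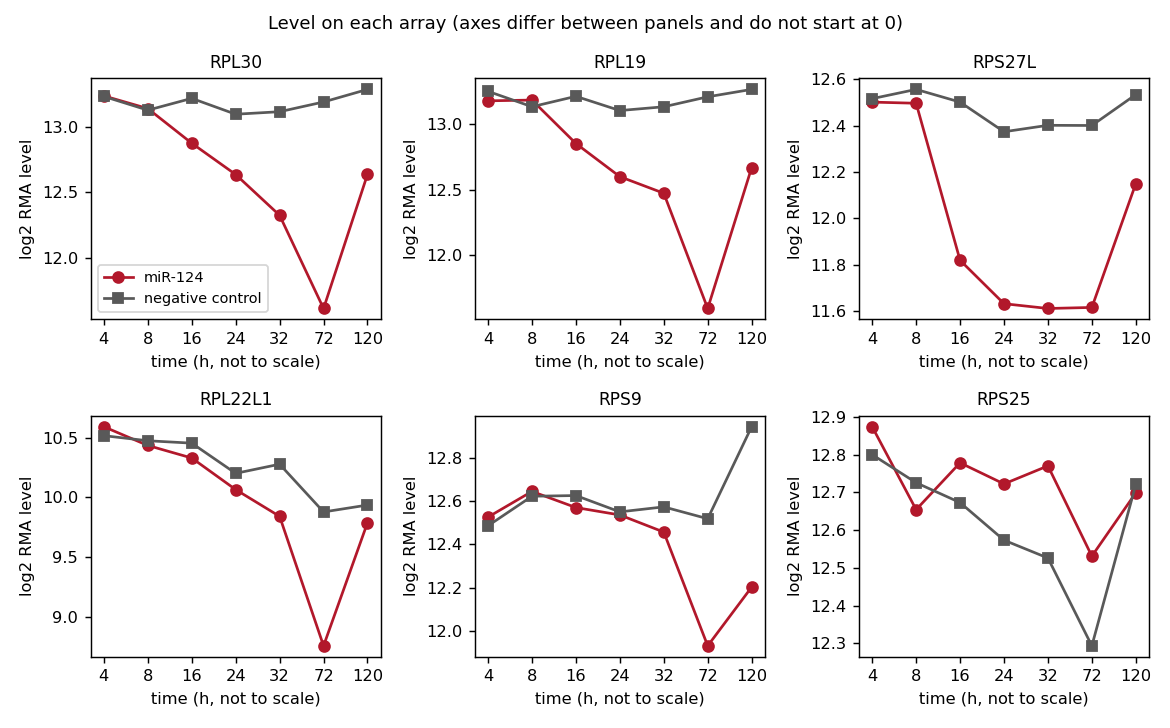
Log2 RMA level on each array (vertical axes differ between panels and do not start at 0) against time in hours (not to scale) for 6 ribosomal protein genes, red circles for miR-124 and grey squares for negative control, 1 array per point. RPL30 and RPL19 are lowest with miR-124 at 72 h, RPS27L is low from 16 to 72 h, and RPS9 is low with miR-124 at 72 h and high in the control at 120 h.

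RPS27L, the paralogue of RPS27 known as a p53 target, was the only member called in the middle window. Its log2 levels were 12.50, 12.50, 11.82, 11.63, 11.61, 11.62 and 12.15 with miR-124, against 12.52, 12.56, 12.50, 12.37, 12.40, 12.40 and 12.53 in the control. At 4 and 8 h the miR-124 arrays lay within the control's range over all times, and all miR-124 arrays from 16 h on lay below every control array. The ratio stood at −0.68, −0.74, −0.79 and −0.78 at 16, 24, 32 and 72 h and at −0.38 at 120 h. The middle change was −0.74 ± 0.09 (SE, 3 pairs, limma adjusted p = 0.00537) and the late change −0.58 ± 0.11 (2 pairs, limma adjusted p = 0.0052). The middle call was lost without 24 h and without 32 h, with 0 members called in each. RPS27 itself had log2 levels of 13.31 to 13.47 with miR-124 and 13.38 to 13.49 in the control. Its late change was 0.00 ± 0.08 (limma adjusted p = 0.981).

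RPL22L1, the paralogue of RPL22, was the one member called in the control course. Its log2 levels were 10.59, 10.44, 10.33, 10.07, 9.84, 8.76 and 9.79 with miR-124, against 10.52, 10.48, 10.46, 10.20, 10.28, 9.88 and 9.94 in the control. It fell in both arms, by 0.28 ± 0.08 per doubling of time with miR-124 (limma adjusted p = 0.0404) and by 0.14 ± 0.02 in the control (limma adjusted p = 0.0207). The lowest array was miR-124 at 72 h, at 2.18-fold below control, and the ratio at 120 h was −0.15. The late change of −0.64 ± 0.20 only just passed (limma adjusted p = 0.047), and its adjusted p under the alternatives ran from 0.000395 to 0.466. RPL22 had a late value of −0.19 on its brightest probe set, which did not pass.

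The other tested paralogues gave no call between the arms in any window. RPL26L1, which resembles RPL26, had a late value of 0.06 ± 0.11 (limma adjusted p = 0.759), and it fell over time with miR-124, by 0.10 ± 0.03 per doubling (limma adjusted p = 0.0398). RPL36AL, which resembles RPL36A, had −0.14 ± 0.09 (limma adjusted p = 0.277). RPL7L1, a factor of large subunit assembly related to RPL7, had −0.22 ± 0.11 (limma adjusted p = 0.185), with ratios of −0.27 at 32 h, −0.43 at 72 h and −0.01 at 120 h.

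RPS9, a small subunit protein near the entry site of the message, had the smallest late p-value among the members. Its log2 levels were 12.53, 12.64, 12.57, 12.54, 12.46, 11.93 and 12.20 with miR-124, against 12.49, 12.62, 12.63, 12.55, 12.57, 12.52 and 12.94 in the control. Through 32 h the arms stayed close, the ratios running from −0.12 to 0.04. At 72 and 120 h both miR-124 arrays lay below every control array, and the control at 120 h lay above all its other arrays. RPS9 fell by 0.66 ± 0.08 late (SE, 2 pairs, limma adjusted p = 0.00115), a 1.59-fold decrease. It was also the only member whose late change differed from its middle change, by −0.60 ± 0.11 (limma adjusted p = 0.0214), against 1.54% of all genes lower in that difference. The ratio of RPS9 fell by 0.16 ± 0.04 per doubling of time (limma adjusted p = 0.0343), the one member called, against 1.67% of all genes. Both calls on the change with time were lost without the 4, 8 or 16 h pair, the call on the difference also without 24 or 32 h, and that on the slope also without 72 h and without 120 h.

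The remaining late decreases were small. RPL3, a large subunit protein near the catalytic centre, had ratios of −0.37 at both 72 and 120 h and a late change of −0.37 ± 0.08 (limma adjusted p = 0.0115). RPL14 fell by 0.33 ± 0.09 late (limma adjusted p = 0.0235), with log2 levels of 12.71 at both late times with miR-124, against 12.97 at 72 h and 13.11 at 120 h in the control. RPL34 was at 12.63 and 12.49 with miR-124 at 72 and 120 h, against 12.77 and 12.99 in the control, and fell by 0.32 ± 0.10 (limma adjusted p = 0.047). RPL10A, of the L1 stalk through which spent transfer RNA leaves, was at 13.07 and 13.31 with miR-124, against 13.44 and 13.53 in the control. Its late change was −0.29 ± 0.08 (limma adjusted p = 0.0301). RPS3, at the entry site of the message, RPL12, at the base of the P stalk, RPL24, RPL35 and RPL35A had late changes from −0.29 to −0.25. These 5 passed narrowly, at limma adjusted p = 0.0363 (RPL35A) to 0.0482 (RPL12). The late calls of RPL34, RPL35A and RPL10A were lost under 8, 9 and 6 alternatives. Those of RPL14 and RPL22L1 were kept under 8 and 4 of 13 alternatives.

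The tested P stalk genes, RPLP1 and RPLP2, gave no call, and RPLP0 was not among the members. RPLP1 had log2 levels of 13.49 to 13.56 with miR-124 and 13.51 to 13.61 in the control, with a late value of −0.04 ± 0.08 (limma adjusted p = 0.794). RPLP2 had a dim probe set, at 6.01 to 7.17 with miR-124 and 6.34 to 7.39 in the control, and a late value of −0.10 ± 0.45 (limma adjusted p = 0.903). That interval is too wide to place it.

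At the other end, RPS25, a small subunit protein used by some viral messages to start translation, had the highest late value, 0.11 ± 0.10 (limma adjusted p = 0.457). Its ratio was 0.24 at both 32 and 72 h and −0.02 at 120 h. RPS4X, encoded on the X chromosome, had 0.04 ± 0.09 and RPS19, known from Diamond-Blackfan anaemia, had −0.02 ± 0.09. Neither passed, at limma adjusted p = 0.795 and 0.886. RPS4X and RPS19 were above control at 72 h (0.15 and 0.08) and below it at 120 h (−0.08 and −0.13).

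Over time within one arm (the miR-124 course was added after the data were seen), 4 members fell with miR-124, RPL14, RPL22L1, RPL24 and RPL26L1, and 1 fell in the control, RPL22L1. Among all tested genes 8.06% fell with miR-124 and 5.48% in the control. With one pair left out in turn, in order of time, the miR-124 count was 0, 0, 1, 1, 1, 2 and 6, and RPL14 and RPL26L1 were called in none of these fits. With the mean of a gene's probe sets 7 members fell and 1 rose. Slopes of the 52 members without a call with miR-124 ran from −0.24 to 0.01 per doubling of time.

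Members with and without a TOP tract had close medians in the late window. The 34 tested members with the tract had a median late change of −0.15, and 9 of them fell. The 16 without it had a median of −0.15, and 4 fell. At 72 h the medians were −0.07 with and −0.15 without the tract, and at 120 h −0.22 and −0.17. RPS9 and RPL22L1 have the tract at the annotated start, and RPL19 and RPS27L do not. The second annotated start of RPL19 lies inside a run of C and T, so its place depends on the annotated base. Late decreases occurred in both sets as read at the annotated base. No test of the difference was made.

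Where a gene has several probe sets, they often gave different sizes. Across all 107 tested probe sets 24 fell late and 0 rose, against 12% of all probe sets lower and 15.3% higher. Of the 56 probe sets used for the genes 10 fell in this fit, and of the 51 others 14 did. At 120 h, 97 of 107 lay below 0. On Affymetrix arrays the suffixes s and x mark probes shared between transcripts or prone to match similar sequences, which bears on a family with many processed copies in the genome. Of the probe sets without such a suffix 11 of 32 fell, of those with s 8 of 39 and of those with x 5 of 36. With 1 probe set per gene and only those without a suffix, 13 of 25 genes fell, against 11.8% of all genes, and 8 of these genes were among the 14.

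**Figure D4:**
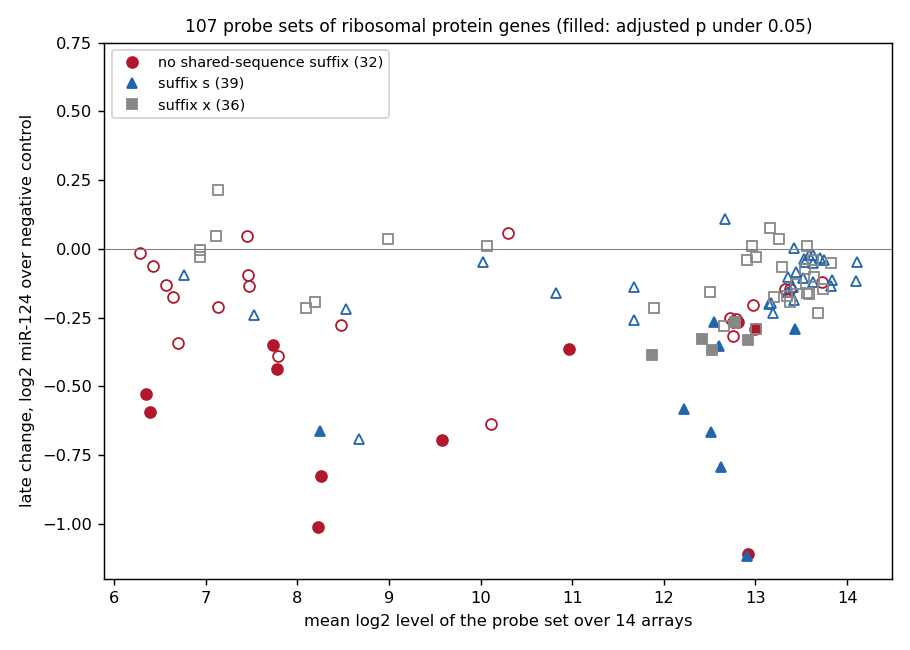
Late change (log2 miR-124 over negative control) against mean log2 level for the 107 tested probe sets of ribosomal protein genes. Circles have no shared-sequence suffix, triangles have s and squares x, and filled symbols passed an adjusted p of 0.05 in the fit of all probe sets. All 24 filled symbols lie below 0, and dim and bright probe sets both occur among them.

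RPS15A, a small subunit protein, differed most between its probe sets. The brightest had a late value of −0.14 ± 0.08, and one at a mean level of 8.22 without a suffix fell by 1.01 ± 0.12 (limma adjusted p = 0.00122), with ratios of −0.33, −0.57, −0.71, −1.16 and −0.86 from 16 to 120 h. The third, at 6.29, had −0.02 ± 0.11. RPL35A ran from −0.53 to 0.21 over 4 probe sets, of which 2 fell. RPS21 had −0.11 on its brightest probe set, while its other probe set fell by 0.70 ± 0.08 (limma adjusted p = 0.00129). RPL31 had −0.07 on the brightest, and 1 of its other 2 fell, by 0.66 ± 0.10 (limma adjusted p = 0.00313). RPL10A fell on both, by 0.29 ± 0.08 and 0.79 ± 0.11. The late values of RPS27L were −0.58, −0.69 and −0.82 on its 3 probe sets, of which 2 passed. RPS9 fell on both of its tested probe sets, by 0.66 and 0.39. In RPL22, RPL37, RPS28 and RPS29 the brightest probe set did not pass, and a dimmer one without a suffix fell, by 0.37 ± 0.10, 0.35 ± 0.10, 0.44 ± 0.10 and 0.59 ± 0.15 (limma adjusted p = 0.028, 0.0345, 0.0164 and 0.0203). RPL37 also had dimmer ones without a suffix that did not pass. In RPL18, RPL37A, RPS14, RPS16, RPS23 and RPS24 no probe set passed, dimmer ones without a suffix among them. Which transcripts or copies each probe set reads was not tested.

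A small set of probe sets moved up and down between the first 5 times. Of the 107, 9 had a range of the ratio above 1 from 4 to 32 h, among them those used for RPL27A and RPLP2 and others of RPL14, RPL37A, RPL38, RPS10 and RPS27L. All 9 were above control at 4 h (median 0.85), 0 at 8 h (median −0.67), 7 at 16 h and 0 at 24 h (median −1.19). The control probe sets for 18S ribosomal RNA averaged 11.1 with miR-124 and 8.70 in the control at 4 h, and 8.28 with miR-124 and 9.20 in the control at 8 h. At 16 h they averaged 8.00 with miR-124 and 7.86 in the control. The 18S average at 24 h was 7.60 with miR-124 and 7.31 in the control. At 32 h it was 8.13 with miR-124 and 8.20 in the control. The part of that signal in the values of these probe sets was not tested. RPL27A had a late value of −0.22, which did not pass.

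The genes that build and control the ribosome were taken as lists from general knowledge. Of 17 tested genes for translation factors and other proteins with TOP messages, 4 fell late and 0 rose, with a median of −0.14, against 12.6% lower among all tested genes. HNRNPA1, an RNA-binding protein, fell by 0.62 ± 0.12, EIF3D, an initiation factor subunit, by 0.41 ± 0.10, PABPC1, which binds poly-A tails, by 0.32 ± 0.09 and EIF3E, another subunit of the same factor as EIF3D, by 0.32 ± 0.09 (limma adjusted p = 0.0071, 0.0164, 0.034 and 0.0384). EIF4B, an initiation factor, had −0.36 ± 0.12 and did not pass (limma adjusted p = 0.0641). All 17 lay below control at 120 h, with a median of −0.29, and 8 of 17 did at 72 h, with a median of 0.00, where 51.5% and 47.7% of all tested genes did. FAU, which encodes a small subunit protein under another name, had −0.12 ± 0.08 (limma adjusted p = 0.333).

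Of 45 tested genes of ribosome biogenesis, 7 fell late (15.6%) and 0 rose, with a median of −0.24. Among all tested genes 12.6% fell late, so the count of lower genes is near the background. FBL, which methylates ribosomal RNA, fell by 0.77 ± 0.12, NOP14, of small subunit assembly, by 0.76 ± 0.18 and HEATR1, of ribosomal RNA transcription and processing, by 0.61 ± 0.14 (limma adjusted p = 0.00256, 0.0169 and 0.0135). SDAD1, of large subunit assembly, had −0.79 ± 0.25 and did not pass (limma adjusted p = 0.0501). At 72 h 44 of 45 lay below control with a median of −0.52, and at 120 h 13 of 45 did with a median of 0.11, against 47.7% and 51.5% of all tested genes. Within the arms, 18 of 45 fell over time with miR-124 and 8 in the control, against 8.06% and 5.48% of all tested genes.

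Of 11 RNA polymerase I genes, 2 fell late and 1 rose, where all tested genes had 12.6% lower and 16.4% higher, so these counts are near the background. POLR1F fell by 0.80 ± 0.22 late and by 0.76 ± 0.18 in the middle window (limma adjusted p = 0.0288 and 0.0438), and POLR1E fell by 0.51 ± 0.08 late (limma adjusted p = 0.00321). The gene that rose was RRN3, an initiation factor of the polymerase, by 0.38 ± 0.11 (limma adjusted p = 0.0296). POLR1B and POLR1D had −0.55 ± 0.21 and 0.43 ± 0.24 and did not pass (limma adjusted p = 0.0924 and 0.234). Of 11 chaperones and importers of ribosomal proteins, 2 fell, also near the background, and 0 rose, the nuclear import receptors IPO7 by 0.52 ± 0.10 and IPO5 by 0.49 ± 0.11 (limma adjusted p = 0.00773 and 0.0115). HEATR3 and PDCD2, chaperones of single ribosomal proteins, had −0.43 ± 0.22 and −0.39 ± 0.13 and did not pass (limma adjusted p = 0.196 and 0.0543).

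Of 17 genes that control the translation or transcription of ribosomal protein messages, 4 fell late and 1 rose, where all tested genes had 12.6% lower and 16.4% higher. AKT1S1, an inhibitory subunit of mTORC1, fell by 1.12 ± 0.31, EIF4EBP1, the repressor through which mTORC1 acts on initiation, by 0.98 ± 0.12, and MYC, a transcription factor of growth genes, by 0.68 ± 0.14 (limma adjusted p = 0.0278, 0.000943 and 0.00951). EIF4EBP2, a relative of EIF4EBP1, fell by 0.43 ± 0.09 (limma adjusted p = 0.00837). TSC1, an upstream inhibitor of mTORC1, rose by 0.56 ± 0.10 (limma adjusted p = 0.00492). EIF4EBP1 also fell in the middle window, by 0.44 ± 0.09 (limma adjusted p = 0.0312).

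Mitochondrial ribosomal proteins, a separate family encoded in the nucleus, had 22 of 75 genes lower and 3 higher late, with a median of −0.23, against 12.6% lower and 16.4% higher among all tested genes. MRPL17, MRPL49, MRPS26 and MRPL23 fell by 0.62 ± 0.15, 0.60 ± 0.12, 0.58 ± 0.18 and 0.56 ± 0.10 (limma adjusted p = 0.0161, 0.00763, 0.0423 and 0.00462). The 3 that rose were MRPL27, MRPL33 and MRPS10, by 0.50 ± 0.10, 0.42 ± 0.09 and 0.38 ± 0.11 (limma adjusted p = 0.00639, 0.00931 and 0.0344). The list's median ratio was −0.39 at 72 h, with 64 of 75 below control, and −0.05 at 120 h, with 46 below. Among the cytoplasmic members the medians at the same times were −0.08 and −0.19. These are values of single array pairs, and no difference between the lists was tested.

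**Figure D5:**
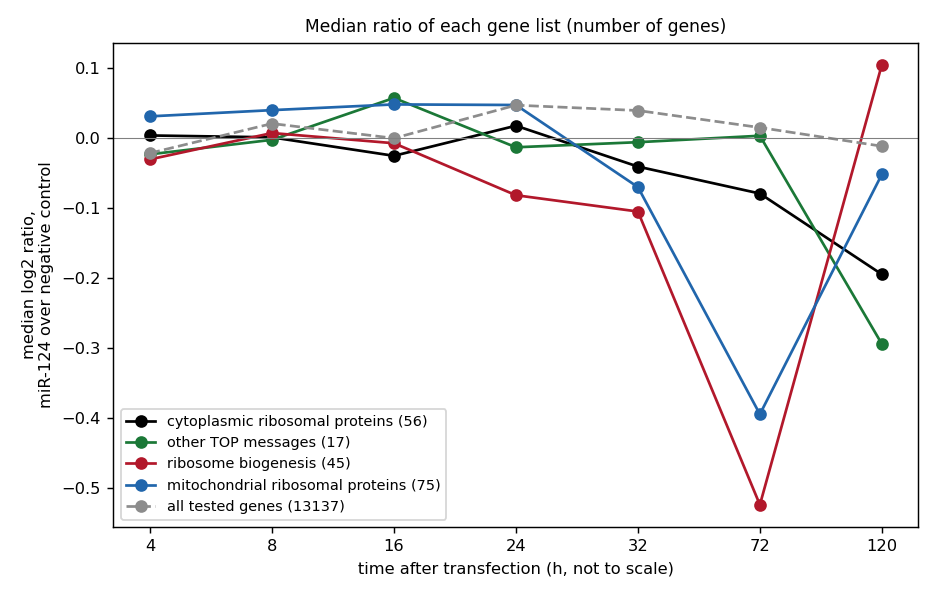
Median log2 ratio of miR-124 over negative control (vertical axis) at 7 times (hours, not to scale) for 4 gene lists and for all tested genes, with the number of genes in the legend, 1 pair of arrays per time. Ribosome biogenesis and mitochondrial ribosomal proteins are lowest at 72 h (−0.52 and −0.39), while cytoplasmic ribosomal proteins and the other TOP messages are lowest at 120 h (−0.19 and −0.29).

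Over the marker lists, 1 of 9 hepatocyte markers (FGB, a fibrinogen chain, by 0.46 ± 0.09) fell late and 0 rose (median −0.16, limma adjusted p for FGB = 0.00752). Of the 6 tested markers of other cells, CD3D rose by 1.44 ± 0.25 and PECAM1 by 0.46 ± 0.11 late (limma adjusted p = 0.00466 and 0.0189), 4 did not pass, and PTPRC, CD14, CDH5, COL3A1 and NEFL lay below the filter. The part of other cells in the late changes of the members was not tested.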

How the data were processed

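Total RNA of 14 HepG2 samples, 7 per transfection, was hybridised as biotinylated cRNA to one-colour arrays, per the labels. The deposited log2 values were made by the authors with RMA, per the submitters' processing notes; version and settings are not given in the sources used here. They ran from 2.93 to 14.4 over 54675 probe sets, and no 2 arrays were identical (correlations 0.904 to 0.997). Arrays have no depth, and their number limits the precision.

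Of the probe sets, 62 were controls, 41091 had 1 gene symbol, 1801 several and 11721 none in the platform annotation. Gene identifiers of 41037 matched the RefSeq gene table and 0 symbols changed. Control probe sets were left out. Genes were tested if their mean lay above the median probe set (6.19). Members and lists were chosen with earlier results of these data known.

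Tests used limma 3.58.1 in R 4.3.3, two-sided with Benjamini-Hochberg adjustment over all genes, with time as a block: overall (6 residual degrees of freedom), windows (4), and slopes per doubling of time (5). The time labels pair the arrays: deviations from group means correlated at 0.206 to 0.480 within the 7 pairs. On simulated data for the late window with 13137 genes, 92% of 100 changes of −0.5 and 100% of 100 of −1 were recovered, with 9 false calls. These figures hold for the simulated data only and do not measure the reliability of the late calls. In the real data late SEs differed between members, such as 0.08 for RPL27 and 0.45 for RPLP2. Log2 ratios also differed between the late times, as in RPL30, with −1.58 at the first and −0.65 at the last. TOP tracts were read from RefSeq promoters (GRCh38.p14, 250 bases before to 50 after each start). Figures used matplotlib 3.10.9 in Python 3.11.15.

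Named were the 8 lowest and 5 highest members by late change, members called early or in the middle window, the P stalk genes, every tested paralogue, the 5 members whose probe sets differed most, and the 4 genes of each other list with the largest late change. Members named beyond this rule, such as RPL22, RPL24 and RPL27A, and list genes beyond the 4, such as RRN3 and EIF4EBP2, were chosen after their values were seen. Alternatives were centred arrays, no filter, every probe set, the mean of a gene's probe sets, only probe sets without a suffix, each pair left out, no replicate block, a change of at least 1.5-fold, and windows fitted on their own arrays.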

Additional observations from a re-analysis of the deposited data

Results flagged for a closer look

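Among the named members, 8 of 44 groups of 7 arrays held a value apart from the others by Dixon's test. Chance flags about 1 in 20 groups that are independent and hold like values. That rate cannot be set against this count. Many members were named by their late values, the groups share arrays, and each group mixes 7 times. In the negative control the array at 120 h was the highest for RPL14 (13.11), RPL3 (12.79), RPL31 (13.73), RPL34 (12.99), RPS19 (13.71) and RPS9 (12.94), and the lowest for RPL26L1 (9.80). With miR-124, RPS27 was lowest at 16 h (13.31). In 7 of these 8 groups the array was thus the control at 120 h, which also had the lowest 3′ to 5′ differences for ACTB and GAPDH (0.102 and 0.0311). The part of that array's RNA quality in these values was not tested.

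The effect on RPS9 differed between windows, the late change lying below the middle change by 0.60 (log2 −0.60 ± 0.11, limma adjusted p = 0.0214). Its ratio also changed with time, with a slope of −0.16 ± 0.04 per doubling (limma adjusted p = 0.0343). Without 120 h the difference was −0.53 ± 0.12 (limma adjusted p = 0.0180) and without 72 h −0.68 ± 0.12 (limma adjusted p = 0.0115), while without any earlier pair it did not pass. The slope passed without 24 h and without 32 h and did not pass without any other pair.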

How the results depend on the processing

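Each alternative was run one at a time. The late count of 14 lower members was 24 of 107 over every probe set, 0 with the window on its own arrays, 4 at 1.5-fold or more, and 5 to 12 with one pair left out. The middle count of 1 was 3 over every probe set, 2 on probe sets without a suffix, 3 on its own arrays, and 0 to 3 with one pair left out. The overall count of 0 was 0 to 1 with one pair left out. The count for late against middle, 1, was 4 over every probe set, 0 with the mean of probe sets, 0 with no replicate block, and 0 to 4 with one pair left out. The control course, 1 lower, gave 2 calls over every probe set (1 lower and 1 higher), 3 with the mean of probe sets (2 lower and 1 higher, RPS24), 2 on probe sets without a suffix (1 lower and 1 higher, RPS24), and 0 to 2 with one pair left out. The slope of the ratio, 1, gave 3 over every probe set, 2 without a suffix, and 0 to 4 with one pair left out. The cause was not tested beyond the change in tests and degrees of freedom that each alternative makes. With no replicate block the late count was 15, of which 13 were among the 14. It was 11 with no filter and 13 with centred arrays, all among the 14. With the mean of probe sets it was 17, of which 12 were among the 14. In the fit of every probe set, 10 of the 56 probe sets used for the members passed late. Those of RPL12, RPL22L1, RPL34 and RPL35 missed the threshold there. The early count was 0 in every alternative.

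Of 273 values of named members in the late window, 217 kept direction and side of the threshold, 42 lost the call, 6 gained one and 8 changed sign, none of them called. With 120 h and with 72 h left out, the values were −0.154 and 0.270 for RPL26L1, 0.0821 and −0.228 for RPL31, 0.0502 and −0.122 for RPLP1, 0.150 and −0.340 for RPLP2 and 0.0829 and −0.126 for RPS19, then 0.238 and −0.0222 for RPS25, 0.0918 and −0.0846 for RPS27 and 0.152 and −0.0772 for RPS4X. A pair left out of the late window leaves 1 pair there, assumed to vary like the others. The single array per time limits the precision of all values.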
